A study of Mus musculus with 4 samples.

Results

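The loci of 3 genes that encode transcription factors of hepatocytes, Hnf4a, Foxa2 and Cebpa, were examined for binding of the estrogen receptor alpha, ESR1, in mouse liver and uterus. A peak was assigned to a locus when its summit lay within 150 kb of the gene span. The spans on the mm9 build, rounded to 10 kb, were 163.33 to 163.40 Mb on chromosome 2 for Hnf4a, 147.86 to 147.88 Mb on chromosome 2 for Foxa2 and 35.90 to 35.91 Mb on chromosome 7 for Cebpa. The windows thus covered 1 Mb of the genome in all. They held 36 of the 31768 deposited peaks, of which 22 came from the liver list and 14 from the uterus list. Both tissues were flash-frozen organs of 8 week old female C57BL/6 mice. Each tissue gave 1 ESR1 library made by chromatin immunoprecipitation and sequencing (ChIP-seq) and 1 input library that served as the control. No hormone treatment, cycle stage or number of animals per library is given in the sources used here. Bulk tissue holds several cell types, so a site bound in few cells and a site bound weakly in many cannot be told apart.

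ESR1 is a nuclear receptor that is activated by estrogens and binds DNA as a dimer. It is a major regulator of the uterus and is also expressed in the liver. The genes studied encode 3 different kinds of DNA-binding protein. HNF4A is itself a nuclear receptor and controls a large share of hepatocyte genes, including those of lipid handling and plasma proteins. FOXA2 is a forkhead factor that can bind compacted chromatin and open it for others. It is known in the liver and also in the glands of the uterus. CEBPA is a basic leucine zipper factor that drives the metabolic genes of mature hepatocytes and fat cells.

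The promoters of the genes are shown because all 3 gene spans held liver peaks and no uterus peak. They are the 250 bases before the first start site that the RefSeq table lists for each gene. Which of the listed start sites is used in liver was not examined. All 3 genes matched that table, with 2 start sites listed for Hnf4a, 3 for Foxa2 and 1 for Cebpa. The sequences and their positions are those of GRCm38.p6 and not of mm9, so they cannot be laid over the peaks here, and whether a peak covers a promoter was not determined. Nor was it determined whether a peak lies in an exon, intron or untranslated region. The sequences are printed 5′ to 3′ on the strand of the gene.
Hnf4a, chr2:163506607-163506856, + strand: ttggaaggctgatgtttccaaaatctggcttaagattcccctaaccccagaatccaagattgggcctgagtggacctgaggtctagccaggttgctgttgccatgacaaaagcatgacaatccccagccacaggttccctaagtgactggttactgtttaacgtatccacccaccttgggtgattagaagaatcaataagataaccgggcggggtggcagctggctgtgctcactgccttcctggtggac
Foxa2, chr2:148046970-148047219, − strand: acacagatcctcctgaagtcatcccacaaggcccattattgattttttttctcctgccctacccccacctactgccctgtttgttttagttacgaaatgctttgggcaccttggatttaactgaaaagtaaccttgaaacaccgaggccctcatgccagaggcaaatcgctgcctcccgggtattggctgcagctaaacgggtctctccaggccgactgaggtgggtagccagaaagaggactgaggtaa
Cebpa, chr7:35119043-35119292, + strand: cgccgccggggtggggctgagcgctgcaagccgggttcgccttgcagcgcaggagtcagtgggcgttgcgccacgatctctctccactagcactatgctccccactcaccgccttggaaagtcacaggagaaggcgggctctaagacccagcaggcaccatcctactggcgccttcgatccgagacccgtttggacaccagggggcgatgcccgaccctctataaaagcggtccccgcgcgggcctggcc
The estrogen response element, 2 arms of GGTCA and TGACC with any 3 bases between them, was searched in all 6 listed promoters of the genes over 300 bases each, on both strands. The 6-base arm AGGTCA was searched in the same way and can overlap the full element. Neither was found, so no letters are capitalised above. Of 32851 promoters of that length in the table, 0.0700% held the full element and 16.3% held the arm. The absence refers only to these letters in these windows. The sequence under the peaks was not used here, since it needs the mm9 genome.

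The libraries were close in depth, with 20016495 unique tags in liver and 22298008 in uterus, where a tag is 1 sequenced read end. The lists were not close in length, at 6932 peaks in liver and 24836 in uterus, both called at a p cutoff of 1e-10. The values of each peak are the authors' own. Tags are raw counts over the peak, and fold enrichment is the signal over a local background from the control, by which peaks are ranked only within their own list. A site missing from a list lay under the cutoff there and is not shown to be unbound. The smallest peak in the lists had 18 tags in liver and 16 in uterus. Since each tissue had 1 library, the spread between animals is unknown and differences between tissues were not tested. Intervals are 95% intervals of counting error alone.

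Over the 3 loci together, liver peaks lay closer to the gene spans than uterus peaks did, a pattern that was less clear at Foxa2. Of the liver peaks, 6 of 22 had their summit inside a gene span, with 2 in each span, against 0 of 14 uterus peaks. The spans were rounded to 10 kb, so a summit inside one is not shown to lie in the gene. The spans made up 10% of the length examined. Within 25 kb of a span lay 14 liver peaks (63.6%) and 1 uterus peak (7.14%), in a zone that made up 25% of the length examined. Within 50 kb there were 17 liver peaks (77.3%) and 3 uterus peaks (21.4%), in 40% of the length. By locus these were 5 of 5 liver and 1 of 8 uterus peaks at Hnf4a and 10 of 11 and 1 of 3 at Cebpa. At Foxa2 they were 2 of 6 liver and 1 of 3 uterus peaks, and the other liver peaks there lay 62.76 to 105.9 kb away. Over the 3 loci, 1 liver peak and 6 uterus peaks lay farther than 100 kb from a span. The share of all peaks of each list that lie in or near gene spans was not computed. The closeness of the liver peaks is therefore not shown to be particular to these loci. The stretch between the nearest uterus summits on either side of a gene was 185.9 kb at Hnf4a, 160.7 kb at Foxa2 and 142.9 kb at Cebpa, and these stretches held 5, 2 and 4 liver peaks. At the outer edge of the windows, the closest peaks left out were uterus peaks 150.4 kb from the Hnf4a span and 152.4 kb from the Foxa2 span, each with 47 tags. The farthest peak kept was a uterus peak 130.1 kb from the Cebpa span, with 36 tags.

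The liver peaks outside the gene spans all lay on the downstream side. Hnf4a and Cebpa are read toward higher coordinates and Foxa2 toward lower ones, by their strand in the RefSeq table. Downstream of the span lay 3 of 3 such liver peaks at Hnf4a, 4 of 4 at Foxa2 and 9 of 9 at Cebpa, 16 of 16 in all. The uterus peaks were divided between the sides, with 6 upstream and 8 downstream. In windows of 300 kb on either side, 18 of 18 liver peaks outside the spans lay downstream and 19 of 31 uterus peaks lay upstream. In windows of 500 kb, 21 of 22 liver peaks lay downstream and 32 of 49 uterus peaks lay upstream. In windows of 1000 kb, 30 of 38 liver peaks lay downstream, and the uterus peaks were split into 43 upstream and 44 downstream. Each wider window includes the peaks of the narrower ones, so these counts are not separate evidence. From 500 to 1000 kb, upstream liver peaks rose from 1 to 8 and downstream ones from 21 to 30. The asymmetry in liver was noticed in the data and was not tested, and neighbouring peaks of a locus are not independent of each other. The sides were set by the rounded spans, and the share of all liver peaks that lie downstream of a gene was not computed.

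**Figure D1:**
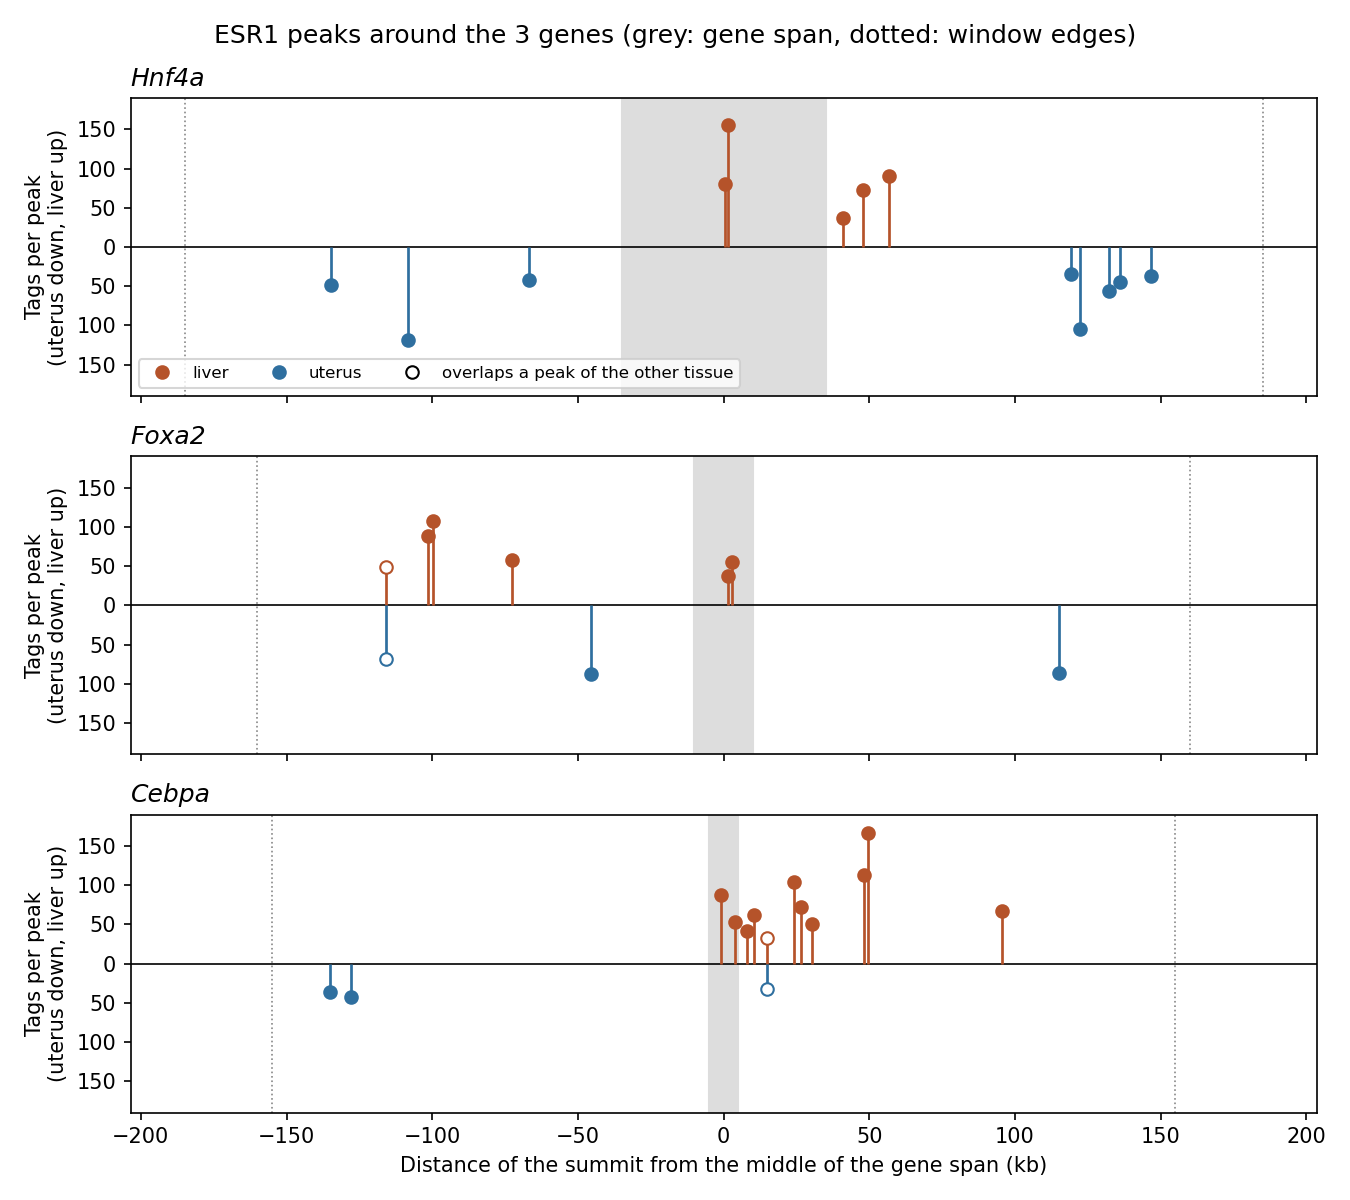
Tags per peak (vertical axis, liver upward and uterus downward) against the distance of the summit from the middle of the gene span in kb, with grey bands for the spans, dotted lines for the window edges and open circles for peaks that overlap a peak of the other tissue; coordinates run upward from left to right. Liver peaks stand in and to the downstream side of each span (right at Hnf4a and Cebpa, left at Foxa2), and no uterus peak falls in a grey band.

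At Hnf4a, on chromosome 2, the lists did not meet at any site. The liver list held 5 peaks and the uterus list 8, and none overlapped. The nearest liver and uterus summits were 62.3 kb apart. The main liver site was a pair of peaks inside the gene span. The stronger, at 163366182 to 163367027, had 155 tags (exact Poisson interval 132 to 181) at 26.5-fold and ranked 254th by tags among the 6932 liver peaks. Its partner, at 163364909 to 163365809, had 80 tags (63.4 to 99.6) at 9.60-fold, with summits 1070 bp apart. The 155-tag peak thus stood above the other 4 in both measures, and its counting interval did not meet theirs. The remaining liver peaks followed the gene span within 22 kb. They had 37 tags at 8.12-fold (163406004 to 163406382), 73 tags at 8.84-fold (163412293 to 163413108) and 91 tags at 9.17-fold (163421598 to 163422784). The last of these was the widest of the 22 liver peaks, at 1187 bp.

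The uterus peaks of the Hnf4a window fell into a group on each side. Upstream were 3 peaks, 31.67 to 99.81 kb from the span. The middle one, at 163256570 to 163257147, had 119 tags (98.6 to 142) at 29.4-fold, the highest values of the 14 uterus peaks. The outer ones had 49 tags at 15.5-fold (163229870 to 163230451) and 42 tags at 7.71-fold (163298050 to 163298618). Downstream were 5 peaks between 84.28 and 111.7 kb from the span. One of them, at 163486740 to 163487730, had 104 tags (85 to 126) but only 10.4-fold enrichment. The other 4 had 34 to 56 tags and 9.32- to 18.6-fold, at 163484028 to 163484410, 163496913 to 163497466, 163500757 to 163501303 and 163511422 to 163511938. By order on GRCm38, the nearest protein-coding genes on the upstream side of Hnf4a are R3hdml, Fitm2 and Gdap1l1, and those on the downstream side are Ttpal, Serinc3 and Pkig. Peaks were not assigned to them, because their mm9 spans were not used here.

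At Foxa2, also on chromosome 2, there were 6 liver peaks and 3 uterus peaks, and 1 site was found in both lists. The weakest liver peaks by enrichment were those in the gene span. They lay at 147871194 to 147871751, with 37 tags (26.1 to 51) at 6.35-fold, and at 147872459 to 147873144, with 55 tags (41.4 to 71.6) at 4.90-fold. The latter ranked 6912th of 6932 by fold enrichment but 3722nd by tags. For that peak, tags per kb divided by fold enrichment, a rough measure of the local background, came to 16.4, the highest of the 22 liver peaks, against a median of 7.99 over the liver list. The part of the local background in the low fold was not tested. The strongest liver peaks of the window formed a pair 89.85 and 91.4 kb downstream, with summits 1548 bp apart. They had 107 tags (87.7 to 129) at 14.7-fold (147769838 to 147770766) and 88 tags (70.6 to 108) at 9.21-fold (147768208 to 147768892). A liver peak 62.76 kb downstream, at 147797000 to 147797503, had 58 tags at 7.68-fold.

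In uterus, the 3 peaks of the Foxa2 window had fairly high enrichment. The peak nearest to the gene, 35.48 kb downstream at 147823897 to 147824715, had 87 tags (69.7 to 107) at 25.8-fold. A peak 105.3 kb upstream, at 147984850 to 147985509, had 86 tags (68.8 to 106) at 18.2-fold. The third, at 147753802 to 147754411, had 68 tags at 23.9-fold and was the site shared with liver. All 3 lay above the uterus list medians of 55 tags and 14.7-fold, and 5 of the 6 liver peaks lay below the liver list median of 11.2-fold, the exception being the 107-tag peak.

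Cebpa, on chromosome 7, had the densest run of liver peaks of the 3 loci, 11 in its 310 kb window against 3 uterus peaks. Of these, 10 lay within 50 kb of the span. The run began in the gene span with a peak at 35903873 to 35904621, which had 87 tags (69.7 to 107) at 13.6-fold. A weaker one in the span, at 35908257 to 35909070, had 53 tags at 6.64-fold. Farther downstream, a peak at 35928715 to 35929422 had 104 tags (85 to 126) at 18.4-fold, and one at 35931191 to 35931876 had 72 tags (56.3 to 90.7) at 9.32-fold. The strongest site was a pair 43.28 and 44.48 kb downstream, with summits 1192 bp apart. Its members had 113 tags (93.1 to 136) at 9.48-fold (35952857 to 35953648) and 166 tags (142 to 193) at 19.3-fold (35954102 to 35954801). The latter ranked 198th of the liver list by tags and had the most tags of all 36 peaks. A shared site lay between the gene and these peaks. The other 4 liver peaks had 42 to 67 tags and 8.56- to 13.8-fold, and the last of them, at 36000289 to 36000741, was 90.51 kb from the span.

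The uterus peaks of the Cebpa window were weak. They had 36, 42 and 32 tags at 8.83-, 14.6- and 8.97-fold, so all 3 lay below the uterus list median in both measures. The first 2 were on the upstream side, 130.1 and 123.0 kb from the span, at 35769686 to 35770202 and 35776670 to 35777224, where no liver peak was found. The third, at 35919643 to 35920132, was the shared site. By order on GRCm38, Cebpg, which encodes a related factor, is the next protein-coding gene upstream of Cebpa, followed by Pepd, and Slc7a10 is the next downstream.

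Only 2 of the sites were found in both tissues, 1 at Foxa2 and 1 at Cebpa. They made up 9.09% of the 22 liver peaks (Wilson interval 2.53 to 27.8) and 14.3% of the 14 uterus peaks (4.01 to 39.9). An overlap of at least 1 bp with the other tissue was found for 23.7% of all liver peaks and 6.58% of all uterus peaks, and both values lie within these intervals. The intervals treat peaks as independent, which neighbouring peaks of a locus are not, so they give no test against the lists. At the Foxa2 site the summits were 15 bp apart, and the liver peak (147753799 to 147754439) had 49 tags, or 2.45 RPM (tags per 1000000 unique tags), against 68 tags, or 3.05 RPM, in uterus. The ratio of liver to uterus was 0.803 (exact binomial interval 0.544 to 1.18). At the Cebpa site the summits were 4 bp apart, and the liver peak (35919607 to 35920172) had 33 tags, or 1.65 RPM, against 32 tags, or 1.44 RPM. The ratio there was 1.15 (0.685 to 1.93), and per kb of peak it was 0.995. Both intervals include 1, but they cover counting error alone, and a difference between the tissues was not tested. Shared sites also had to pass the cutoff in both lists. Fold enrichment went in opposite ways, with 7.67 in liver and 23.9 in uterus at Foxa2 and 13.1 in liver and 8.97 in uterus at Cebpa. Each fold rests on its own control library. The median ratio over all 1651 overlapping pairs was 1.08 (quartiles 0.698 and 1.57), and both sites lay between the quartiles.

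**Figure D2:**
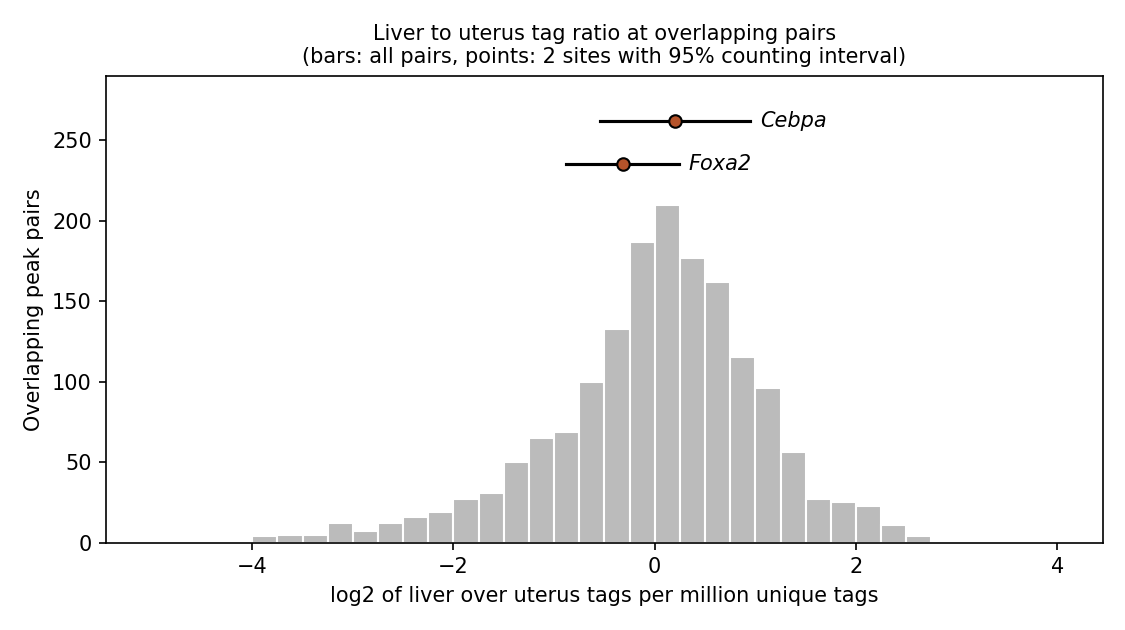
Number of overlapping liver and uterus peak pairs (vertical axis) by the log2 ratio of liver to uterus RPM, for all 1651 pairs (grey bars), with the Foxa2 and Cebpa sites as points and their 95% counting intervals as lines; the height of the points has no meaning. Both sites lie in the middle of the distribution, and both lines cross 0.

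In liver, the shared sites were not among the peaks of most tags. The 5 liver peaks with at least 100 tags, of which 1 was at Hnf4a, 1 at Foxa2 and 3 at Cebpa, all lacked an overlapping uterus peak, whereas 41% of the 964 liver peaks of that size in the whole list had one. That size limit was chosen after the values were seen. The shared liver peaks ranked 4476th and 6469th of the list by tags. In uterus, the shared Foxa2 peak lay above the list medians of tags and fold enrichment, and the shared Cebpa peak lay below both. Of the 22 liver peaks, 5 had a uterus summit no farther than 10 kb away, 1 at Foxa2 and 4 at Cebpa, whereas 45% of the liver list did. The 4 at Cebpa were all near the same uterus peak, that of the shared site, and the 1 at Foxa2 was itself shared. Of the 14 uterus peaks, 2 had a liver summit no farther than 10 kb away, as did 14% of the uterus list.

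In strength, the peaks of the 3 loci were spread around the medians of their lists. The tags of the liver peaks ranged from 33 to 166 with a median of 69.5, against a list median of 58, and 13 of 22 exceeded the latter, as 48.9% of the list did. Their fold enrichment ranged from 4.90 to 26.5 with a median of 9.40, against 11.2, and 9 of 22 exceeded the list median, as 49.9% of the list did. The uterus peaks had 32 to 119 tags with a median of 46.5, against 55, and 6 of 14 lay above the list median, compared with 49.3% of the list. Their fold enrichment was 7.71 to 29.4 with a median of 14.5, against 14.7, and again 6 of 14 lay above the list median, compared with 50%. The highest tag count in the lists was 4003 in liver and 4719 in uterus. Both of those peaks had a lower fold enrichment than any peak of these loci, so their tags alone do not rank them as stronger sites.

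**Figure D3:**
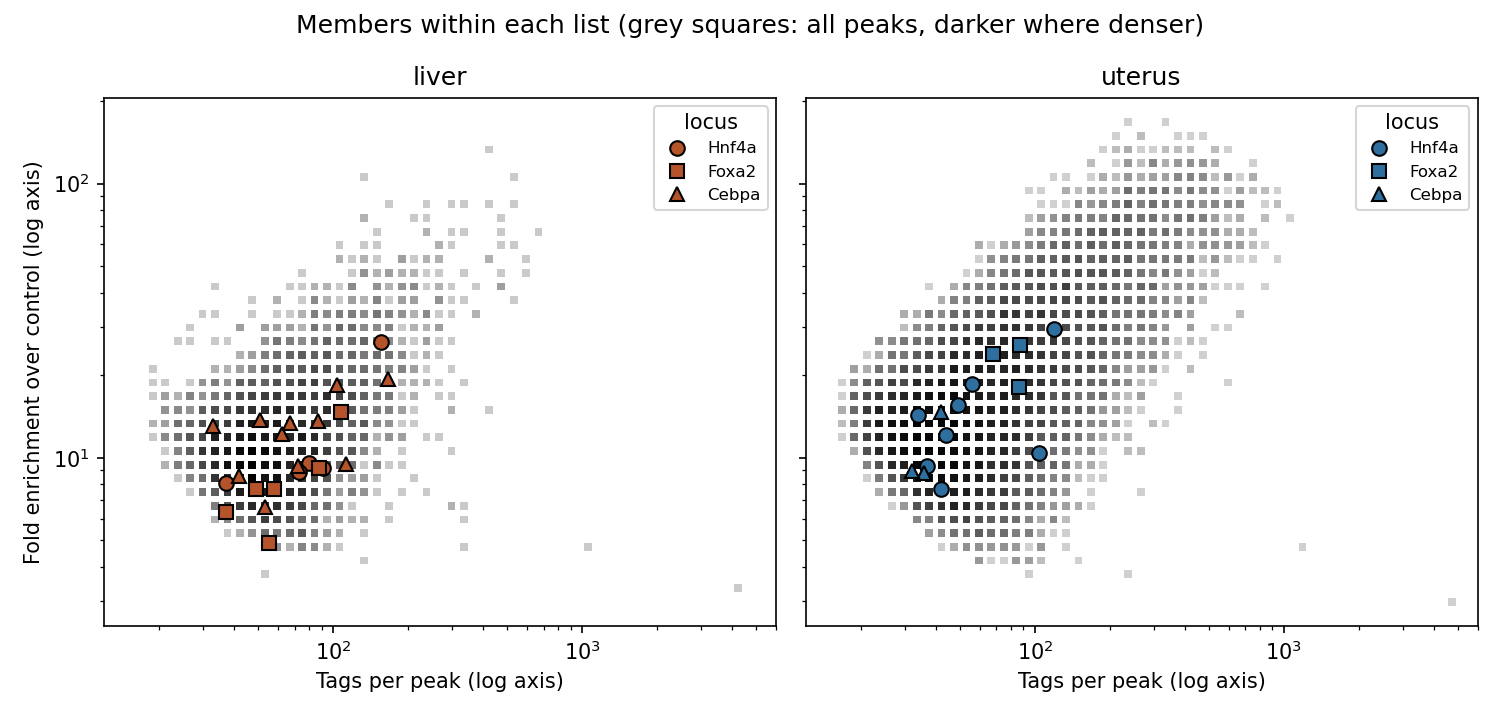
Fold enrichment over control against tags per peak, both on log axes, for the liver list (left) and the uterus list (right), with all peaks as binned grey squares and the peaks of the Hnf4a, Foxa2 and Cebpa loci as circles, squares and triangles. The liver peaks of the loci spread from 33 to 166 tags and from 4.90- to 26.5-fold, and the Cebpa peaks of uterus sit toward the lower left of their list.

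The windows held more liver peaks per Mb than the genome as a whole. The 22 liver peaks amounted to 22 per Mb, against 2.71 per Mb over the span of the chromosomes, a ratio of 8.11. The 14 uterus peaks gave 14 per Mb against 9.72 per Mb, a ratio of 1.44. The genome was divided into tiles as long as each window, and the median tile held 0 liver peaks and 2 uterus peaks at all 3 lengths. As many liver peaks as at Cebpa, 11, were reached in 29 of 8261 tiles (0.351%). The 6 liver peaks of Foxa2 were reached in 3.44% of tiles and the 5 of Hnf4a in 6.27%. The uterus counts were commoner, at 41.3% for the 3 of Cebpa, 41.5% for the 3 of Foxa2 and 15.1% for the 8 of Hnf4a. Liver minus uterus peaks came to 8 at Cebpa, a difference reached in 8 of the 8261 tiles (0.0968%). The difference was 3 at Foxa2, reached in 2.25% of tiles, and -3 at Hnf4a, reached in 72%. Within 50 kb of the Hnf4a span there were 5 liver peaks and 1 uterus peak. At Foxa2 the difference turned to -1 when only peaks with a MACS score of at least 200 were kept and to -2 when only those enriched at least 10-fold were. Over the 3 loci together the difference was 8, but it was -7 in windows of 300 kb and -1 with the 10-fold limit. These shares describe the 2 libraries. The windows were centred on genes chosen with earlier results known, and tiles were not.

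**Figure D4:**
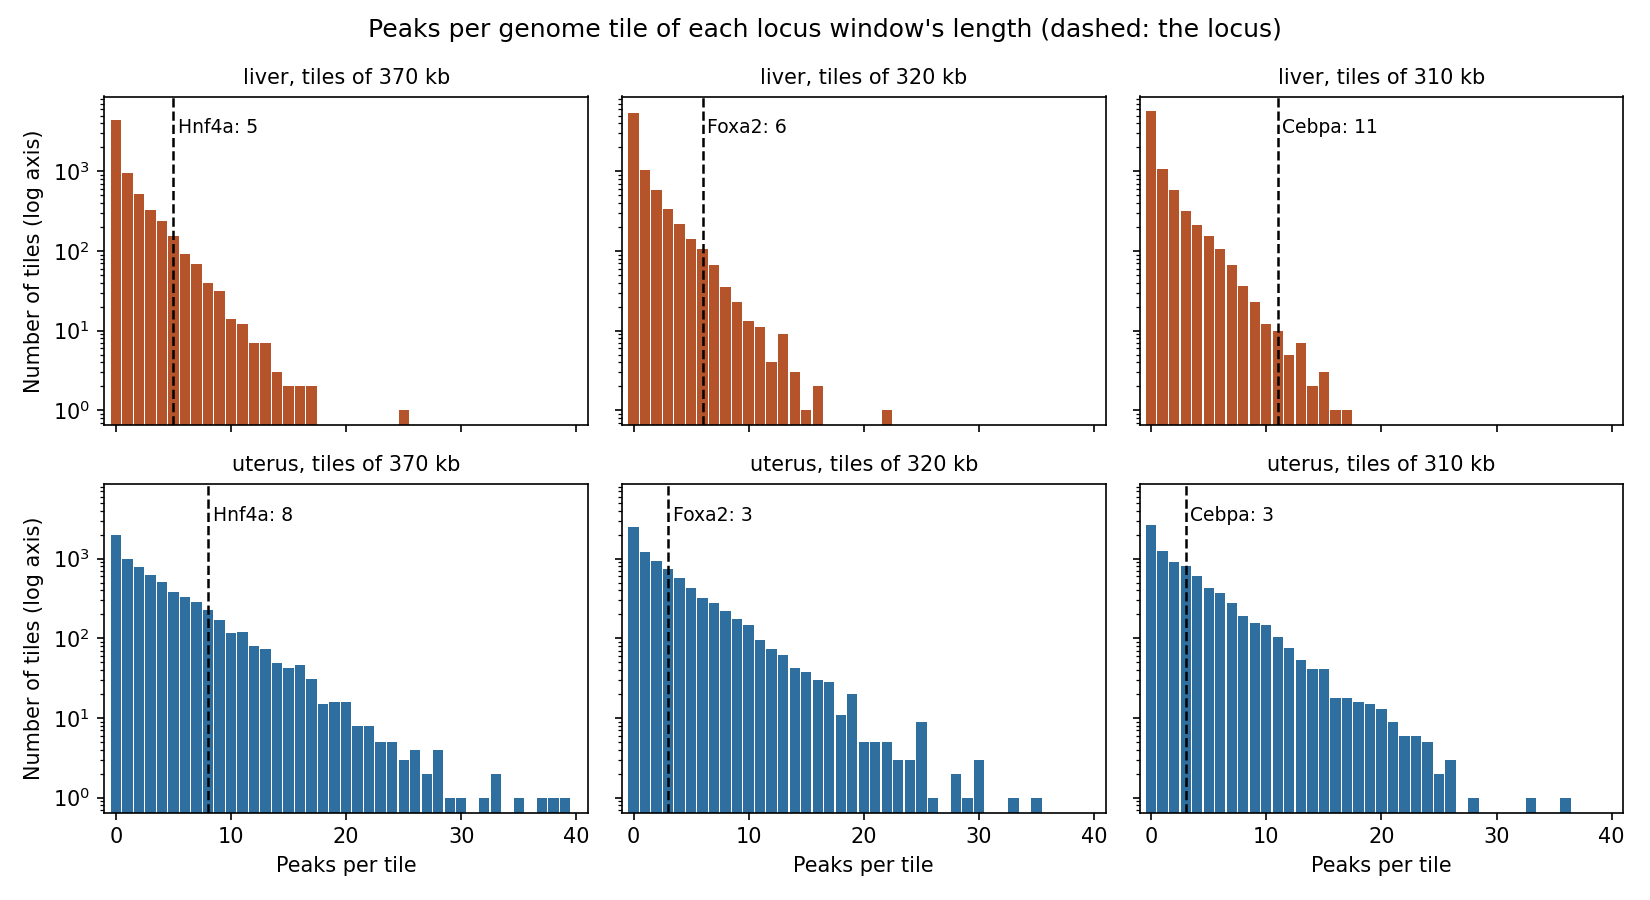
Number of genome tiles (vertical log axis) by the number of peaks they hold, for liver (top) and uterus (bottom) and for tiles of 370, 320 and 310 kb, the window lengths of Hnf4a, Foxa2 and Cebpa; dashed lines mark the loci. The Cebpa line at 11 liver peaks stands in the thin right tail, whereas its uterus line at 3 stands among the common values.

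The liver peak of most tags at each locus was one of a close pair. Of the 22 liver peaks, 8 had another liver summit within 2 kb, in 4 pairs with summits 1070 to 1548 bp apart and 372 to 945 bp between the peak edges. One pair was in the Hnf4a span, 1 in the Foxa2 span, 1 downstream of Foxa2 and 1 downstream of Cebpa. In the liver list 14% of peaks had such a neighbour. The windows held 8.11 times as many liver peaks per Mb as the genome, and pairing was not compared at equal density. The peaks of most tags at the Hnf4a, Foxa2 and Cebpa loci, with 155, 107 and 166 tags, were all in such pairs. So was the 37-tag peak in the Foxa2 span. None of the 14 uterus peaks had a uterus summit within 2 kb, against 16.4% of the uterus list, and their closest neighbours were 2.99 kb apart. The 2 kb limit was chosen after the values were seen. With 1 kb no liver peak of the loci had such a neighbour, against 4.31% of the list, and with 5 kb 16 did, against 29.0%. No deposited value separates 2 binding sites from 1 broad site that was called as 2 peaks.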

How the data were processed

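The data were ESR1 ChIP-seq peak lists of 1 liver and 1 uterus library. According to the submitters' processing notes, the authors used MACS 1.3.7.1 and mm9. Per the file headers, the lists were called at a p cutoff of 1e-10 from tags of 50 bp, each library against its own control, with a model fold of 15 and a 300 bp band width. No source used here names the aligner.

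The deposited tags are raw counts per peak. Fold enrichment, as deposited, is a ratio to the local background. The deposited score equals 10 times the −log10 of the MACS p-value. The false discovery rate was deposited as a percent and was at most 0.39% for liver and 0% for uterus peaks of the loci. In liver the highest rate was not that of the weakest peak. The 155-tag Hnf4a peak, of highest score (769.09), had 0.39%, and the 37-tag peak in the Foxa2 span, of lowest score (101.06), had 0.01%. The reason was not tested.

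Summits were taken as start plus offset minus 1, and sites were shared when peaks overlapped by at least 1 bp. Shares have Wilson intervals, tags exact Poisson intervals and ratios exact binomial intervals. Tiles started at position 1 of each chromosome and were kept from the first peak to the last. Every peak was described where a locus had at most 10 in a tissue, and otherwise the 5 of most tags and the shared ones in full. The members, windows and lists were chosen with earlier results of these data known. Further liver factors were to be counted if an mm9 annotation was given, and were not analysed here. Overlap counting was checked on placed peaks, where 1500 of 1500 planted pairs were found among 6932 peaks. Planted peaks began exactly where a uterus peak began and all others were placed far away, so peaks that barely overlap or barely miss were not tried. Alternatives were other windows, overlap rules, thresholds, tile positions and depth scalings. The software was Python 3.11.15 with numpy (2.4.6), pandas (2.3.3), scipy (1.17.1) for intervals and matplotlib (3.10.9) for figures.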

Additional observations from a re-analysis of the deposited data

Results flagged for a closer look

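By tags and by MACS score, the peaks of the 3 loci stood on opposite sides of their list medians in the tissues. By fold enrichment both medians lay below those of the lists, with 9.40 for the liver loci (list 11.2) and 14.5 for the uterus loci (list 14.7). The median tags of the liver peaks exceeded the liver list median by 11.5, while the uterus value was -8.5. The median MACS score differed in the same way, by 28.7 in liver and -27.4 in uterus. The difference between the tissues was not tested, since each has 1 library.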

How the results depend on the processing

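With only peaks of a MACS score of at least 200, the loci held 11 liver and 7 uterus peaks, and with a fold enrichment of at least 10 they held 9 liver and 10 uterus peaks. Liver minus uterus peaks over the 3 loci, 8 in the windows of 150 kb, turned to -1 with that fold limit and to -7 with 300 kb, and was 14 with 50 kb. The uterus count depended on the window, with 3 peaks at 50 kb, 8 at 100 kb and 31 at 300 kb. The liver count stayed between 17 and 24 over these windows. By locus, this difference changed sign at Hnf4a with 50 kb, from -3 to 4, and was -5 at a fold enrichment of at least 10. At Foxa2 it changed from 3 to -1 with 300 kb, to -1 with the score limit and to -2 with the fold limit. At Cebpa it was 6 with the score limit and stayed positive throughout, between 5 and 10. The 2 shared sites were found under each overlap rule tried; 0 were left under either strength limit, 1 with 50 or 100 kb and 3 with 300 kb. With the score limit, tiles with at least as many peaks made up 4.81% in liver and 19% in uterus at Hnf4a and 8.39% and 23.4% at Foxa2. At Cebpa the liver share was 0.437%, and the uterus share was 100%, since no uterus peak was left there. Starting the tiles midway through the first ones moved no share beyond its counting interval. The tag ratios at the shared sites kept within their intervals under every scaling tried, at 0.741 to 0.805 for Foxa2 and 0.995 to 1.15 for Cebpa. No paired analysis was possible because each tissue has 1 library. Few tags per peak, 32 to 166, limit the precision of all values.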

Other observations

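The next liver peaks beyond the windows lay 504.8 kb and 678.2 kb from the Foxa2 span, on its lower and higher side, with 46 and 53 tags. Around Cebpa they lay 818.7 kb away on the lower side, with 77 tags, and 176.0 kb away on the higher side, with 57 tags. Of the 17 liver peaks within 1000 kb of Cebpa, 11 were thus within 150 kb, and of the 8 around Foxa2, 6 were. Around Hnf4a it was 5 of 19. For uterus the counts were 3 of 27 at Cebpa, 3 of 25 at Foxa2 and 8 of 35 at Hnf4a within 150 kb of the span. The 150 kb windows made up 310 to 370 kb of stretches of about 2 Mb. These counts were made after the windows had been examined and were not tested.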
